A study of Mus musculus with 16 samples.

Results

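Transcripts of 38 genes of mitosis and DNA replication were followed in cultures of embryonic mouse dorsal root ganglion (DRG) neurons, sensory cells that have left the cell cycle. The genes were chosen by name, with earlier results of these data known, and the rule itself used no measured value. All 38 were found among the 55356 gene identifiers of the count table, 28 of them acting in mitosis and 10 in DNA replication. Of the 38, 35 passed a filter on low counts and were among the 19156 genes tested, and 3 (Cdk1, Pbk and Melk) did not. All 16 samples came from CD1 mouse embryos, whose age the labels do not give, and had grown for 6 days in vitro with B27 supplement and 50 ng/ml nerve growth factor. Every sample, controls included, also received 1 µM 5-fluoro-2’-deoxyuridine and 1 µM uridine, a mixture used on neuronal cultures to hold back cells that copy their DNA. The DMSO group received DMSO at both steps, and the nocodazole group received DMSO and then 200 nM nocodazole. The inhibitor group received 500 nM GNE3511, an inhibitor of the axon injury kinase DLK, and then DMSO, and the inhibitor plus nocodazole group received both agents. The second step followed the first by 15 min and lasted 16 h. Each group held 4 samples. No label says whether these were separate cultures, so the p-values rest on a spread that may be technical. As 1 inhibitor was used at 1 dose, effects through DLK and through other targets of the compound cannot be told apart.

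A cell that divides first copies its DNA. Cyclin E and Cdk2 start the copying, the MCM ring opens the double helix, PCNA clamps the polymerases to the template, and thymidylate synthase and ribonucleotide reductase supply the building blocks. Fluorodeoxyuridine blocks thymidylate synthase, the product of Tyms. In mitosis, cyclin B and Cdk1 drive entry, Plk1 and the Aurora kinases build the spindle, and the spindle checkpoint proteins hold the cell until every chromosome is attached to microtubules. Nocodazole makes microtubules fall apart, and in dividing cells it keeps that checkpoint on and halts them in mitosis. Neurons do not divide, but several of these genes have been described in them in other roles, for example Racgap1 and some kinetochore proteins at microtubules. Genes of this kind share promoter letters: the CCAAT box, bound by NF-Y, the cell cycle homology region, bound by DREAM and MuvB complexes, and E2F sites.

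The promoters of 7 members are printed because Bub1b, Plk1, Pcna, Prc1 and Racgap1 were the 5 members called in at least 2 of the comparisons below, while Cdk1 and Top2a, among the weakest transcripts, carry several copies of these letters. Each line gives the 200 bases before the annotated start, 5′ to 3′ on the gene's strand, from RefSeq on GRCm38.p6, which is not the build of the counts. Capitals mark the motifs searched, on either strand: CCAAT for the CCAAT box, the hexamers TTTGAA and also TTTAAA for the cell cycle homology region, and the octamers TTTGGCGC and also TTTCGCGC and also TTTCCCGC for E2F. A motif on the other strand appears as its complement, so a CCAAT box there reads ATTGG. For Prc1 the first of several listed starts was taken. In the count table these genes are Bub1b (ENSMUSG00000040084), Plk1 (ENSMUSG00000030867), Pcna (ENSMUSG00000027342), Prc1 (ENSMUSG00000038943), Racgap1 (ENSMUSG00000023015), Cdk1 (ENSMUSG00000019942) and Top2a (ENSMUSG00000020914).
Bub1b, chr2:118598011-118598210, plus strand: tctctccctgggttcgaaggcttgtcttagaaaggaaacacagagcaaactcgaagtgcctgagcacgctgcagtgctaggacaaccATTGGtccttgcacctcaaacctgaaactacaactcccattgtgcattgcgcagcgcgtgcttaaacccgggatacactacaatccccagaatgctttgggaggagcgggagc
Plk1, chr7:122159235-122159434, plus strand: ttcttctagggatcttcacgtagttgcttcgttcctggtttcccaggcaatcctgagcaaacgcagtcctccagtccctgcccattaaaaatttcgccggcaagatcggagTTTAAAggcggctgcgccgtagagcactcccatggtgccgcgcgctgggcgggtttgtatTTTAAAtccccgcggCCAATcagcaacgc
Pcna, chr2:132253181-132253380, minus strand: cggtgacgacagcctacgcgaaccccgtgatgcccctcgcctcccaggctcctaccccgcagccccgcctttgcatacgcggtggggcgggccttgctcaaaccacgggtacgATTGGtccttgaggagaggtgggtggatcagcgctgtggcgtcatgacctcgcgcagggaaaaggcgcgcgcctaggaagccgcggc
Prc1, chr7:80294251-80294450, plus strand: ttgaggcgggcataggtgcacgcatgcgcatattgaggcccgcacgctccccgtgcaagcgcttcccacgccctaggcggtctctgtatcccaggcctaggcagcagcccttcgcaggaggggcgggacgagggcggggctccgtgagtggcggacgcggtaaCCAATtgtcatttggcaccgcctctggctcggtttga
Racgap1, chr15:99651657-99651856, minus strand: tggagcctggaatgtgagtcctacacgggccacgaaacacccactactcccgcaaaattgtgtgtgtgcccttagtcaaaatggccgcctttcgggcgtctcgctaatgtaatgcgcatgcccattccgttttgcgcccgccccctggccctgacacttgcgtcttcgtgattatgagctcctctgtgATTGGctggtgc
Cdk1, chr10:69352913-69353112, minus strand: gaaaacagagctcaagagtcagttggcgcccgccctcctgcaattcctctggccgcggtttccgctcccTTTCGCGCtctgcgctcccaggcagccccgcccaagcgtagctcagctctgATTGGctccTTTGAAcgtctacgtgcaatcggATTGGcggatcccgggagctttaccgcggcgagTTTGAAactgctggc
Top2a, chr11:99024190-99024389, minus strand: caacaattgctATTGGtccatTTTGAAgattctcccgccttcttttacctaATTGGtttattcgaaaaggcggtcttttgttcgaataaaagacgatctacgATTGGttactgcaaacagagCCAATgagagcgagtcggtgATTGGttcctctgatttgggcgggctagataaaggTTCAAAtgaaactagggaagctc
Cdk1 held all 3 kinds of letters in these bases, and Top2a held 5 CCAAT boxes and 2 cell cycle homology regions. Plk1 held 2 cell cycle homology regions and 1 CCAAT box. Bub1b, Pcna, Prc1 and Racgap1 each held 1 CCAAT box and none of the other letters, and those of Bub1b, Prc1 and Racgap1 that count below for the cell cycle homology region lie outside these 200 bases. Over the whole window of the table, 250 bases before to 50 after the start, 33 of the 38 members were matched. Ccna2, Aurkb, Pbk, Tpx2 and Ccne2 had no entry. CCAAT stood in 26 of the 33 windows (78.8%), against 37.9% of all 27025 promoters. A cell cycle homology region stood in 24 (72.7%), against 27.8% of all promoters, and both together in 21 (63.6%), against 10.9%. E2F letters were rarer, in 4 windows (12.1%) against 1.91% of all promoters: those of Cdk1, Mcm3, Mcm5 and Mcm6. The mitosis members held a cell cycle homology region in 19 of 24 windows and E2F letters in 1, and the replication members in 5 and 3 of 9. Melk, Mad2l1, Nusap1 and Tyms held none of these letters in the window. A match describes the letters and is not a site of binding.

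Most members were transcribed at a very low level. CPM are counts per 1000000 of the library, with library sizes scaled between samples. The median member lay at 1.00 CPM over the 16 libraries, against 8.69 CPM for all genes tested. There were 19 members under 1 CPM, 14 from 1 to under 5 CPM, and 5 at 5 CPM or more: Pcna, Racgap1, Mcm2, Mad2l1 and Mcm6. The median was 0.927 CPM for the mitosis members and 2.42 CPM for the replication members. The 28 mitosis members together took between 0.00494% and 0.00589% of the counts of a library. Cdk1, the kinase that starts mitosis, had between 0 and 12 counts per library. Pbk and Melk, both mitotic kinases of dividing progenitors, had 0 to 5 and 1 to 9 counts. Top2a, the topoisomerase that untangles chromosomes, had 2 to 21 counts. With 1 count worth 0.0230 to 0.0325 CPM and a floor of 3 counts at 0.0691 to 0.0976 CPM, these 4 lay close to what the depth can show. In bulk samples, fewer cells of a type and less RNA per cell cannot be told apart, and these levels cannot say whether a few cells hold the transcripts or many cells hold traces.

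Levels between genes were compared per kilobase of exon, which spanned a wide range within single complexes. Pcna led with 6.90 CPM per kb, followed by Racgap1 (1.90), Mcm6 (1.87), Mcm2 (1.62), Ccne1 (1.60), Aurka (1.10) and Mad2l1 (1.06), and the other 31 members lay under 1 CPM per kb. Racgap1 and Mcm6, neighbours in that order, changed places between groups: Racgap1 lay lower in DMSO (1.86 against 2.03 CPM per kb) and in nocodazole (1.13 against 1.93), and higher in the groups with the inhibitor. At the low end stood Top2a (0.0280), Pbk (0.0227) and Cdk1 (0.0212 CPM per kb). The MCM helicase is a ring of Mcm2 to Mcm7 proteins, and its transcripts were unequal: Mcm4 at 3.34, Mcm6 at 1.87, Mcm2 at 1.62 and Mcm7 at 1.02 CPM per kb, against 0.253 for Mcm5 and 0.176 for Mcm3. Mcm4 and Mcm7 are not members and come from a list of other replication genes.

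**Figure D1:**
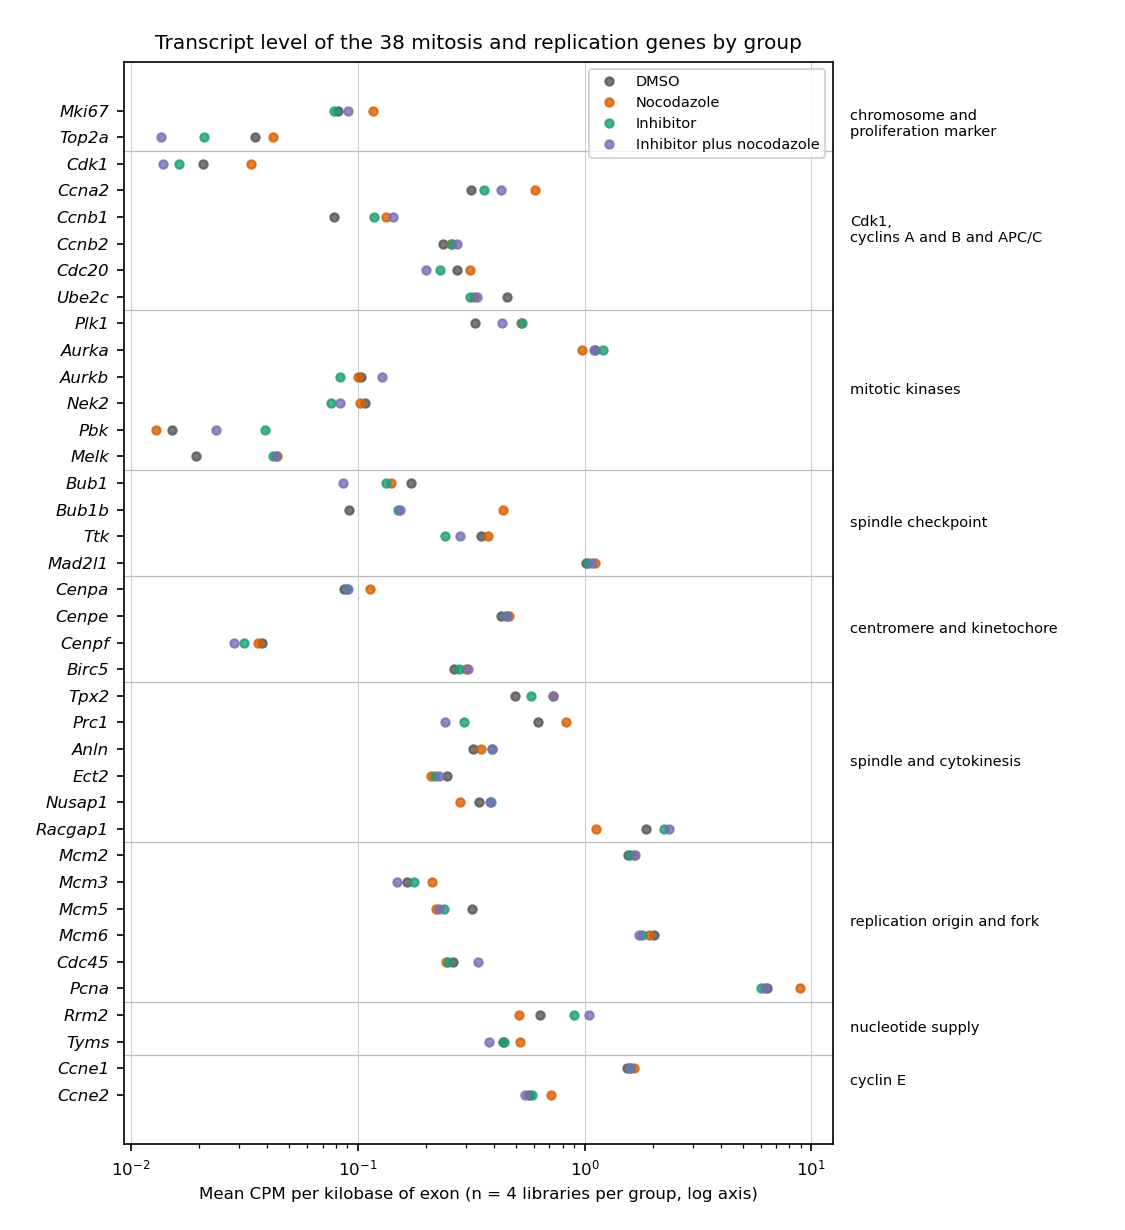
Mean level of each member per group, in CPM per kilobase of exon on a log axis, ordered by role, with 4 libraries behind each point. Most members sit under 1 CPM per kb, Pcna sits highest, and the nocodazole points of Bub1b and Racgap1 stand off from the other 3 groups.

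The libraries held 30987962 to 43321421 counts. All 10 neuronal markers were tested and summed to 12699 to 14108 CPM in DMSO and 9629 to 11460 in nocodazole. They summed to 10589 to 12389 CPM in the inhibitor group and 9663 to 12148 with both agents. In nocodazole against DMSO 6 of them were called lower, and the log2 changes of all 10 ran from -1.60 to -0.03. The mean sum went from 13133 to 10342 CPM, and Tubb3, a tubulin gene, alone went from 3065 to 1014 CPM. Of 10 glial markers, S100b and Mbp carried nearly all of a sum of 152 to 175 CPM in DMSO, 86.0 to 134 in nocodazole, 87.5 to 154 in the inhibitor group and 74.3 to 138 with both agents. The other 8 never passed 1.01 CPM, and the glial genes Sox10 and Foxd3 stayed at or under 0.407 and 0.389 CPM. Calls among the 4 glial markers tested went both ways in nocodazole against DMSO. Mbp was lower (log2 change -0.40, edgeR adjusted p = 0.00062) and Erbb3 higher (1.13, 0.00626). Fibroblast markers, 7 of 10 tested, summed to 4.39 to 7.35 CPM in DMSO and 5.98 to 9.28 in nocodazole. They summed to 3.91 to 5.90 CPM in the inhibitor group and 2.85 to 4.29 with both agents. Twist1, Dpt and Lum had 0 to 2 counts in every library. In nocodazole against DMSO, Dcn was called higher (log2 change 1.62) and Twist2 lower (-2.36). Macrophage markers, 3 of 10 tested, summed to 2.52 to 2.95 CPM in DMSO, 4.34 to 5.89 in nocodazole, 1.90 to 3.04 in the inhibitor group and 2.06 to 3.22 with both agents. Endothelial markers, 2 of 8 tested, summed to 0.869 to 1.93 CPM over all libraries, and pericyte and smooth muscle markers, 6 of 8 tested, to 1.77 to 3.41 CPM. The 3 macrophage markers tested (Cd68, Csf1r and Aif1) had changes of 0.24 to 2.34 on the log2 scale in nocodazole against DMSO, with a median of 0.61, and Cd68, a lysosomal gene with the largest of these, was called. Cx3cr1 and Tyrobp, at 0 to 3 and 0 to 2 counts per library, were not tested. Replicate 1 of the inhibitor plus nocodazole group stood apart from its 3 fellows on the first principal component (10.4, against -31.4 to -28.4) and had a mitochondrial share of 1.71%, in a range of 0.765% to 1.78%.

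**Figure D2:**
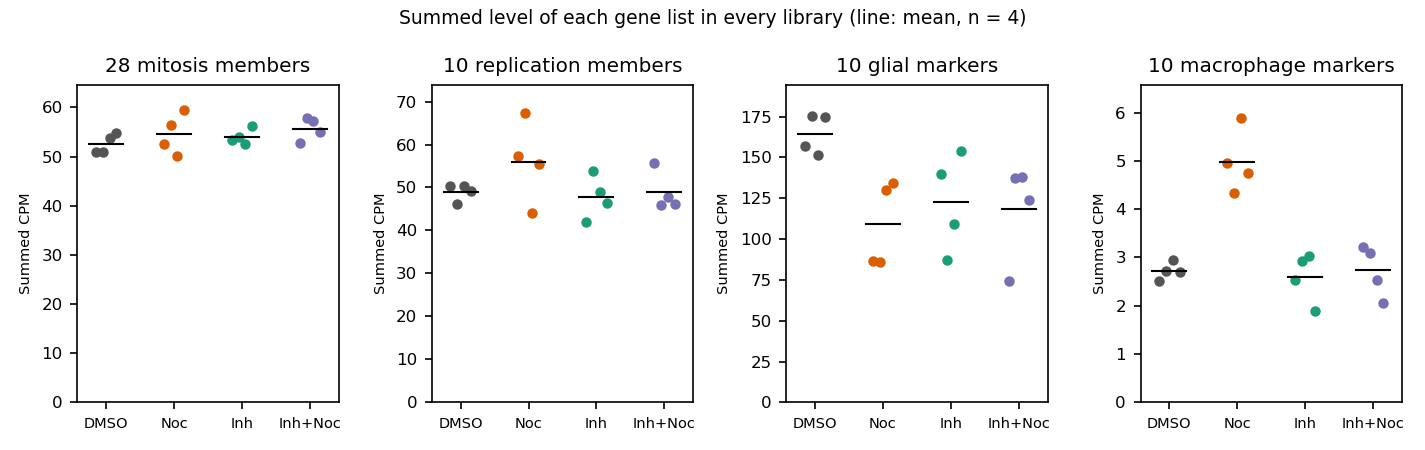
Summed CPM in every library for the 28 mitosis members, the 10 replication members, 10 glial markers and 10 macrophage markers, with a line at each group's mean of 4 libraries. The mitosis sum lies between 50.0 and 59.4 CPM in all libraries, with the groups overlapping, whereas the macrophage sum of each nocodazole library lies above all others. Of the 10 macrophage markers 3 were tested, and Cd68 alone went from a mean of 0.428 CPM in DMSO to 2.16 CPM in nocodazole.

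The summed level of all 28 mitosis members hardly separated the groups. It ran from 51.0 to 54.8 CPM in DMSO, 50.0 to 59.4 in nocodazole, 52.6 to 56.1 in the inhibitor group and 52.8 to 57.8 with both agents, so all 4 ranges overlapped. The replication sum ran from 46.1 to 50.4, 44.1 to 67.2, 42.0 to 53.8 and 45.9 to 55.7 CPM in that order, and overlapped as well. Racgap1 alone gave 11.5 to 15.8 CPM of the mitosis sum in DMSO and 6.80 to 8.83 in nocodazole. Its fall can hide rises of other members in that sum. The spindle checkpoint sum did not overlap between DMSO (10.7 to 11.7 CPM) and nocodazole (12.5 to 15.0). Nor did that of Cdk1, cyclins A and B and the anaphase complex (3.75 to 3.88 against 4.31 to 5.53). The sums of the other mitosis roles overlapped. Single members weighed heavily in both sums that did not overlap. Bub1b went from a mean of 0.391 to 1.86 CPM, where the mean checkpoint sum went from 11.35 to 13.65 CPM. Ccna2 went from a mean of 1.30 to 2.47 CPM, where the mean sum of its role went from 3.79 to 5.02 CPM. Ube2c, of the same role, went from 1.19 to 0.843 CPM. How often sums of other gene sets separate was not tested. The changes below are those of single genes.

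Against DMSO, nocodazole alone raised few of these genes. Bub1b, a kinase-like protein of the spindle checkpoint, rose 4.73-fold, and Ccna2, Ccnb1, Plk1, Tpx2 and Pcna rose by smaller amounts. Racgap1, which acts at the cleavage furrow in cytokinesis, fell. In all, 7 of the 35 tested members were called (6 higher and 1 lower), where 37.5% of all tested genes were called, 18.6% higher and 19.0% lower, so the members' share of 20% lay below the background. The median log2 change was 0.11 for the members and 0.0072 for all tested genes. The median standard error was 0.220 for the members and 0.145 for all genes, so the members were measured less precisely.

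Bub1b lay at 0.373, 0.381, 0.346 and 0.465 CPM in the DMSO libraries and at 1.60, 1.76, 1.60 and 2.47 CPM in the nocodazole libraries. Every nocodazole library stood well above every DMSO library, and the fitted log2 difference was 2.24 with a standard error of 0.299 (edgeR adjusted p = 2.48e-05). Errors after ± below are standard errors of such differences. Of the other checkpoint genes, Mad2l1, which binds Cdc20 to block the anaphase complex, was the strongest per kilobase, with 8.24, 8.29, 9.01 and 8.41 CPM in DMSO and 9.46, 9.93, 7.89 and 10.1 CPM in nocodazole. These overlapped, and the log2 change of 0.14 (95% interval -0.09 to 0.36) did not pass (edgeR adjusted p = 0.332). Bub1 and Ttk, the kinases that recruit checkpoint proteins to the kinetochore, did not pass either, at -0.28 (-1.12 to 0.56) and 0.10 (-0.44 to 0.64). Bub1b was thus the 1 checkpoint member of 4 that was called. Its DMSO level rested on 12 to 15 counts per library and its nocodazole level on 53 to 76.

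Among the cyclins, Ccna2, the cyclin of S phase and G2, lay at 1.24, 1.38, 1.47 and 1.09 CPM in DMSO and at 2.76, 1.65, 2.39 and 3.09 CPM in nocodazole. The groups did not overlap (log2 change 0.92 ± 0.220, edgeR adjusted p = 0.00346). Ccnb1, the cyclin of mitotic entry, lay at 0.311, 0.293, 0.230 and 0.496 CPM in DMSO and 0.607, 0.449, 0.574 and 0.618 CPM in nocodazole. The highest DMSO library overlapped the lowest nocodazole library, and the log2 change of 0.77 ± 0.285 was close to the threshold (edgeR adjusted p = 0.0431). That call was lost in 9 of 16 fits without a single library, with adjusted p from 0.0510 to 0.132: DMSO replicates 1, 2 and 3, nocodazole replicates 1, 3 and 4, inhibitor replicates 2 and 4, and inhibitor plus nocodazole replicate 4. It was also lost with DESeq2 (adjusted p = 0.0909), without the filter (0.106) and in a fit of only these groups (0.0511). Ccnb2, Cdc20 and Ube2c, the last 2 being the activator and the ubiquitin enzyme of the anaphase complex, did not pass, at 0.11, 0.20 and -0.49. All 4 Ube2c values in nocodazole, 0.718 to 0.976 CPM, lay under the DMSO values of 1.06 to 1.28 CPM (edgeR adjusted p = 0.0988).

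Of the mitotic kinases, Plk1 lay at 0.778, 0.674, 0.553 and 0.900 CPM in DMSO and at 0.800, 1.32, 1.30 and 1.20 CPM in nocodazole. Nocodazole replicate 1 lay within the DMSO range. In log2 units Plk1 rose by 0.67 ± 0.204 (edgeR adjusted p = 0.0158). This call was lost without DMSO replicate 3 (adjusted p = 0.0599) and without the filter (0.0533). Aurka, the centrosomal Aurora kinase and the strongest of its group per kilobase, lay at 2.52, 3.31, 2.46 and 2.98 CPM in DMSO and at 2.07, 1.94, 3.02 and 2.83 CPM in nocodazole, with overlap and no call (-0.19, edgeR adjusted p = 0.460). Aurkb and Nek2 did not pass, at -0.06 and -0.09.

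At the spindle, Tpx2, which activates Aurora A on microtubules, lay at 2.12, 2.11, 2.23 and 2.76 CPM in DMSO and at 3.06, 3.98, 3.29 and 3.22 CPM in nocodazole. No value overlapped (log2 change 0.56 ± 0.156, edgeR adjusted p = 0.0102). Racgap1 went the other way, from 11.98, 11.5, 13.5 and 15.8 CPM in DMSO to 8.66, 8.83, 6.80 and 7.61 CPM in nocodazole. All nocodazole libraries lay below all DMSO libraries, at a log2 change of -0.72 ± 0.123 (edgeR adjusted p = 0.000233). Prc1, which bundles the antiparallel microtubules of the spindle midzone, lay at 5.69, 4.77, 5.32 and 4.65 CPM in DMSO and at 6.62, 6.67, 6.04 and 7.84 CPM in nocodazole. These values did not overlap, but the log2 change of 0.41 ± 0.190 did not pass (edgeR adjusted p = 0.10). It passed in an edgeR fit of only these groups (adjusted p = 0.0192) and without inhibitor replicate 4 (0.0262). Ect2, the partner of Racgap1 in cytokinesis, Anln and Nusap1 did not pass, at -0.25, 0.12 and -0.28.

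No centromere or kinetochore member was called. Cenpe, the kinetochore motor and the strongest of them per kilobase, lay at 4.29, 3.57, 3.64 and 3.29 CPM in DMSO and at 2.95, 4.40, 3.02 and 5.59 CPM in nocodazole, with the nocodazole values lying on both sides of the DMSO values (log2 change 0.11, 95% interval -0.35 to 0.56). Cenpa, Cenpf and Birc5 had changes of 0.36, -0.07 and 0.17. The common proliferation marker Mki67 lay at 0.933, 0.791, 0.737 and 0.838 CPM in DMSO and at 1.63, 1.29, 0.786 and 1.01 CPM in nocodazole. The groups overlapped, and the log2 change of 0.52 (95% interval -0.17 to 1.21) did not pass (edgeR adjusted p = 0.225). Top2a had a change of 0.24 (-0.58 to 1.05).

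Among the replication members, Pcna was called and the other 9 were not. Pcna lay at 15.7, 14.8, 15.3 and 15.6 CPM in DMSO and at 22.4, 24.4, 18.2 and 20.8 CPM in nocodazole. The nocodazole libraries lay above all DMSO libraries, at a log2 change of 0.48 ± 0.0870 (edgeR adjusted p = 0.000375). The MCM members ranged from -0.52 (Mcm5) to 0.37 (Mcm3), and Cdc45, which joins the helicase at the fork, had -0.10. Rrm2, the small subunit of ribonucleotide reductase, and Tyms had -0.31 and 0.26. Ccne1 lay at 2.92, 3.22, 5.64 and 4.68 CPM in DMSO and at 4.30, 6.28, 3.20 and 3.77 CPM in nocodazole, which overlapped (log2 change 0.09, 95% interval -0.57 to 0.74). The groups did not overlap for Ccne2, at 1.82 to 2.14 CPM in DMSO and 2.29 to 2.66 CPM in nocodazole, but its change of 0.32 did not pass (edgeR adjusted p = 0.0804). In all, 8 members had groups that did not overlap in this comparison, as did 36.9% of all tested genes. The neuronal and glial sums were lower and the macrophage sum higher in every nocodazole library than in every DMSO library, and their part in these changes was not tested. Tubb3 weighed heavily in the fall of the neuronal sum, and S100b and Mbp carried nearly all of the glial sum. Cd68, a lysosomal gene, weighed heavily in the macrophage sum. It went from a mean of 0.428 to 2.16 CPM, where the mean sum went from 2.72 to 4.99 CPM.

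**Figure D3:**
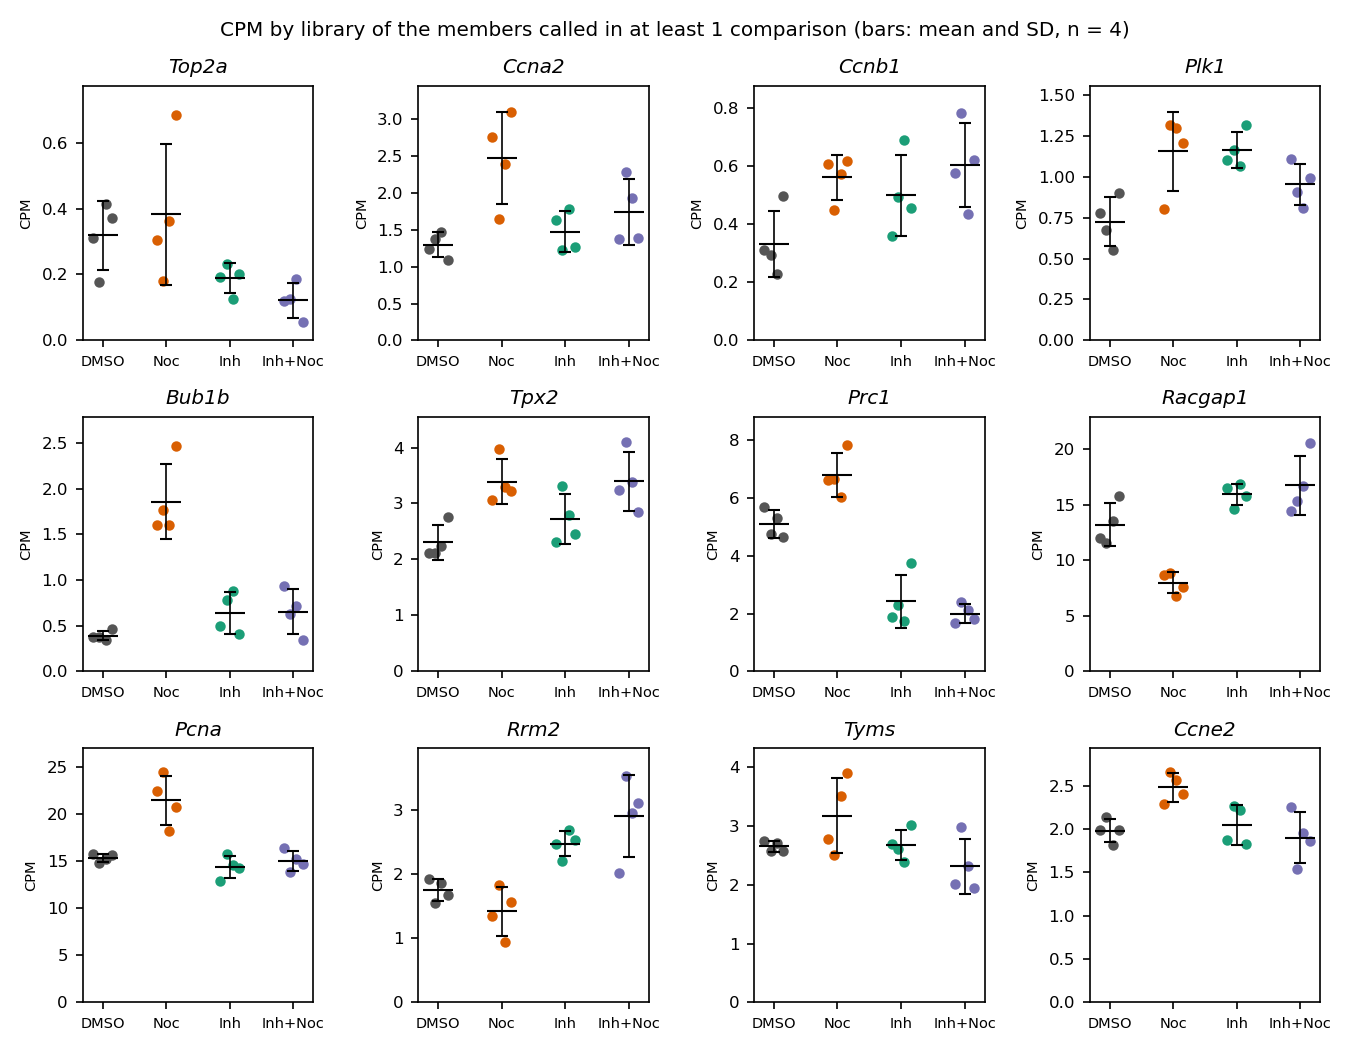
CPM of the 12 members called in at least 1 comparison, for each of the 16 libraries, with the mean and SD of each group of 4. Bub1b and Pcna stand high and Racgap1 low in the nocodazole group alone, while Prc1 is low in both groups with the inhibitor.

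Given alone, the inhibitor lowered Prc1 and raised Plk1. These 2 calls, 1 in each direction, came from 35 tested members, where 13.0% of all tested genes were called, 5.78% higher and 7.24% lower. The median log2 change was 0.03 both for the members and for all tested genes.

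Prc1 lay at 1.90, 2.30, 1.75 and 3.75 CPM in the inhibitor libraries, all below the DMSO values of 4.65 to 5.69 CPM, with replicate 4 nearest to them. The log2 change was -1.07 ± 0.197 (edgeR adjusted p = 0.00274), which is 2.10-fold lower. The call held in every alternative tried, with log2 changes from -1.36 to -0.94. Plk1 lay at 1.10, 1.16, 1.06 and 1.32 CPM, all above the DMSO values. Its log2 change was 0.69 ± 0.203 (edgeR adjusted p = 0.0354). The Plk1 call was lost on leaving out any 1 of DMSO replicates 1, 2 and 3 or inhibitor replicates 1, 2, 3 and 4 (adjusted p from 0.0577 to 0.110) and without the filter (0.108). Bub1b, at 0.496, 0.785, 0.877 and 0.405 CPM, had a change of 0.70 (95% interval 0.03 to 1.37) that did not pass (edgeR adjusted p = 0.154). Racgap1, at 16.5, 14.6, 16.8 and 15.8 CPM, and Pcna, at 12.9, 15.8, 14.6 and 14.3 CPM, overlapped DMSO, with changes of 0.27 and -0.09. Groups did not overlap for 5 members (Ube2c, Plk1, Prc1, Anln and Rrm2), and for 21.7% of all tested genes. No replication member was called, the widest changes being -0.40 (Mcm5) and 0.50 (Rrm2). Rrm2 passed in an edgeR fit of only these groups (0.49, adjusted p = 0.0456). The count of all called genes, 2494 here, fell to 1523, 1274, 1242 and 1290 without DMSO replicates 2 and 4 and inhibitor replicates 2 and 3. The neuronal sum was lower in every inhibitor library (10589 to 12389 CPM) than in every DMSO library (12699 to 14108 CPM), and its part in these changes was not tested.

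With the inhibitor present in both groups, nocodazole changed no member past the threshold. None of the 35 was called, where edgeR called 16 of the 19156 genes (0.0835%, with 0.0783% higher and 0.00522% lower), and no member had an unadjusted p under 0.05. DESeq2 also called 0 members, with 127 genes called in all. The members' changes ran from -0.66 (Bub1) to 0.58 (Aurkb), with a median of 0.05, against 7.90e-06 over all tested genes. Bub1b lay at 0.937, 0.626, 0.714 and 0.339 CPM with both agents, which overlapped the inhibitor group (log2 change 0.05, 95% interval -0.58 to 0.69). Racgap1, at 14.5, 15.3, 16.7 and 20.5 CPM, and Pcna, at 16.4, 13.9, 15.2 and 14.7 CPM, had changes of 0.07 (-0.18 to 0.32) and 0.07 (-0.12 to 0.25). The intervals of these 3 members exclude changes as large as the fitted ones of nocodazole alone (2.24, -0.72 and 0.48). Ccna2 lay at 1.62, 1.22, 1.78 and 1.27 CPM in the inhibitor group and at 1.37, 2.29, 1.92 and 1.38 CPM with both agents, and Mki67 at 0.606, 0.959, 0.783 and 0.810 CPM and at 1.54, 0.501, 1.12 and 0.480 CPM, each with overlap. Tpx2 lay at 2.31, 3.31, 2.79 and 2.46 CPM in the inhibitor group and at 3.24, 4.10, 3.38 and 2.85 CPM with both agents, the highest of these exceeding every nocodazole value, and its change of 0.32 (95% interval -0.01 to 0.65) did not pass. No member's groups kept apart in this comparison, and 3.28% of all tested genes did so. The count of 16 genes rose to 88 without inhibitor plus nocodazole replicate 1, was 20 without nocodazole replicate 3, and was 3 to 10 without each of the other 14 libraries, while the count of members stayed at 0.

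Under nocodazole, the inhibitor lowered Prc1, Bub1b, Pcna, Top2a, Tyms and Ccne2, and raised Racgap1 and Rrm2. These were 8 of the 35 tested members (2 higher and 6 lower), where 33.9% of all tested genes were called, 17.7% higher and 16.2% lower. It shares the nocodazole libraries with the first comparison, so opposite changes of a gene in both are not independent of each other.

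Prc1 lay at 1.68, 2.41, 2.11 and 1.81 CPM with both agents, all below the nocodazole values of 6.04 to 7.84 CPM. The Prc1 difference was -1.76 ± 0.201 in log2 (edgeR adjusted p = 4.86e-06). Bub1b, at 0.937, 0.626, 0.714 and 0.339 CPM, did not overlap its nocodazole values either, at -1.49 ± 0.282 (edgeR adjusted p = 0.000615). Racgap1 rose by 1.07 ± 0.123 (edgeR adjusted p = 5.62e-06) to 14.5, 15.3, 16.7 and 20.5 CPM, again with no overlap. For Pcna the log2 difference was -0.51 ± 0.0871 (edgeR adjusted p = 0.000245), and its highest library with both agents (16.4 CPM) lay under its lowest with nocodazole (18.2 CPM).

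Rrm2 lay at 1.35, 1.82, 0.937 and 1.56 CPM in nocodazole and at 2.02, 3.54, 2.95 and 3.11 CPM with both agents. All values with both agents were higher, at a log2 change of 1.03 ± 0.198 (edgeR adjusted p = 0.000727). In the DMSO and inhibitor groups it lay at 1.55 to 1.93 and 2.21 to 2.69 CPM. Top2a, by contrast, lay at 0.303, 0.179, 0.363 and 0.683 CPM in nocodazole and at 0.120, 0.125, 0.186 and 0.0565 CPM with both agents, which overlapped. In DMSO it lay at 0.311, 0.176, 0.415 and 0.372 CPM and in the inhibitor group at 0.193, 0.233, 0.125 and 0.203 CPM. Its log2 change with both agents against nocodazole was -1.62 ± 0.443 (edgeR adjusted p = 0.00932). Top2a reached the CPM level of the filter in 3 DMSO and 3 nocodazole libraries and in no library with the inhibitor, so it was tested because of the groups where it was higher, and its call carries that choice. Of the 35 tested members it was the 1 that would fail the filter with a group left out. It was not tested in a fit of only these groups or at a minimum of 1 CPM in 4 libraries, and its call held in the other 20 alternatives.

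Tyms, the target enzyme of fluorodeoxyuridine, lay at 2.79, 2.51, 3.51 and 3.90 CPM in nocodazole and at 2.02, 2.98, 2.33 and 1.95 CPM with both agents, with overlap. In DMSO it lay at 2.74, 2.58, 2.72 and 2.57 CPM and in the inhibitor group at 2.70, 2.62, 2.38 and 3.01 CPM, around the same level. Its log2 change of -0.46 ± 0.163 (edgeR adjusted p = 0.0401) was lost on leaving out any 1 of DMSO replicates 2 and 3, nocodazole replicates 3 and 4, and inhibitor plus nocodazole replicates 1, 3 and 4 (adjusted p from 0.0503 to 0.132). Ccne2 lay at 2.29, 2.66, 2.57 and 2.41 CPM in nocodazole and at 2.26, 1.53, 1.95 and 1.87 CPM with both agents, with no overlap but a narrow gap. Its log2 change of -0.38 ± 0.141 (edgeR adjusted p = 0.0472) was lost in all but 4 of 22 alternatives, among them DESeq2 (0.0754) and the fits without each of the DMSO and nocodazole libraries. Both calls were also lost without the filter (0.0834 and 0.156) and in a fit of only these groups (0.111 and 0.113), where with Top2a not tested 5 members were called in place of 8. In edgeR, 3 further members passed only when a library was left out. Ccna2 passed in edgeR without nocodazole replicate 2 (-0.66, adjusted p = 0.0228) or inhibitor plus nocodazole replicate 2 (-0.68, 0.0342), Bub1 without that last library (-1.25, 0.0374), and Cdc20 without inhibitor plus nocodazole replicate 1 (-0.91, 0.0192). Groups did not overlap for 6 members, and for 28.5% of all tested genes. Without inhibitor plus nocodazole replicate 1, the library that stood apart, the count of members stayed at 8 here, at 0 for nocodazole with the inhibitor present and at 4 in the interaction below. The macrophage sum (4.34 to 5.89 CPM in nocodazole, 2.06 to 3.22 CPM with both agents) also differed without overlap. So did the fibroblast sum (5.98 to 9.28 and 2.85 to 4.29 CPM). Of the 10 macrophage markers only 3 were tested, with log2 changes from -1.33 to -0.58 and 2 called lower. The 7 fibroblast markers tested had log2 changes from -2.28 to 1.78, with 1 called higher and 2 lower. The part of these sums in the members' changes was not tested.

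The interaction asked whether the nocodazole change differed with and without the inhibitor. It was called for 4 of the 35 tested members (1 higher and 3 lower), where 18.7% of all tested genes were called, 9.52% higher and 9.20% lower. Bub1b had -2.19 ± 0.425 (edgeR adjusted p = 0.00235), from a change of 2.24 without the inhibitor and 0.05 with it. Racgap1 had 0.80 ± 0.172 (edgeR adjusted p = 0.00459), from -0.72 and 0.07. Both calls held in every alternative tried. Plk1 had -0.96 ± 0.285 (edgeR adjusted p = 0.0279), from 0.67 and -0.28, and was raised by each agent alone but lay at 1.11, 0.908, 0.807 and 0.989 CPM with both. Pcna had -0.42 ± 0.123 (edgeR adjusted p = 0.0269), from 0.48 and 0.07.

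The Plk1 interaction was lost without DMSO replicates 2 or 3, nocodazole replicates 2 or 3, inhibitor replicate 2, or inhibitor plus nocodazole replicates 2 or 3 (adjusted p from 0.0506 to 0.0618). That of Pcna was lost without DMSO replicate 2, nocodazole replicates 1 or 2, inhibitor replicates 2 or 3, or inhibitor plus nocodazole replicates 2, 3 or 4 (0.0512 to 0.0651). The count of 4 became 2 without DMSO replicate 2, nocodazole replicate 2, inhibitor replicate 2, or inhibitor plus nocodazole replicates 2 or 3. The change of Prc1 under the inhibitor, which was called with and without nocodazole, was not shown to differ between them (interaction -0.70, 95% interval -1.29 to -0.11, edgeR adjusted p = 0.0924). Ccna2, Ccnb1 and Tpx2, which rose with nocodazole alone, had interactions of -0.69 (-1.35 to -0.03), -0.49 (-1.31 to 0.34) and -0.24 (-0.70 to 0.23) that did not pass.

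**Figure D4:**
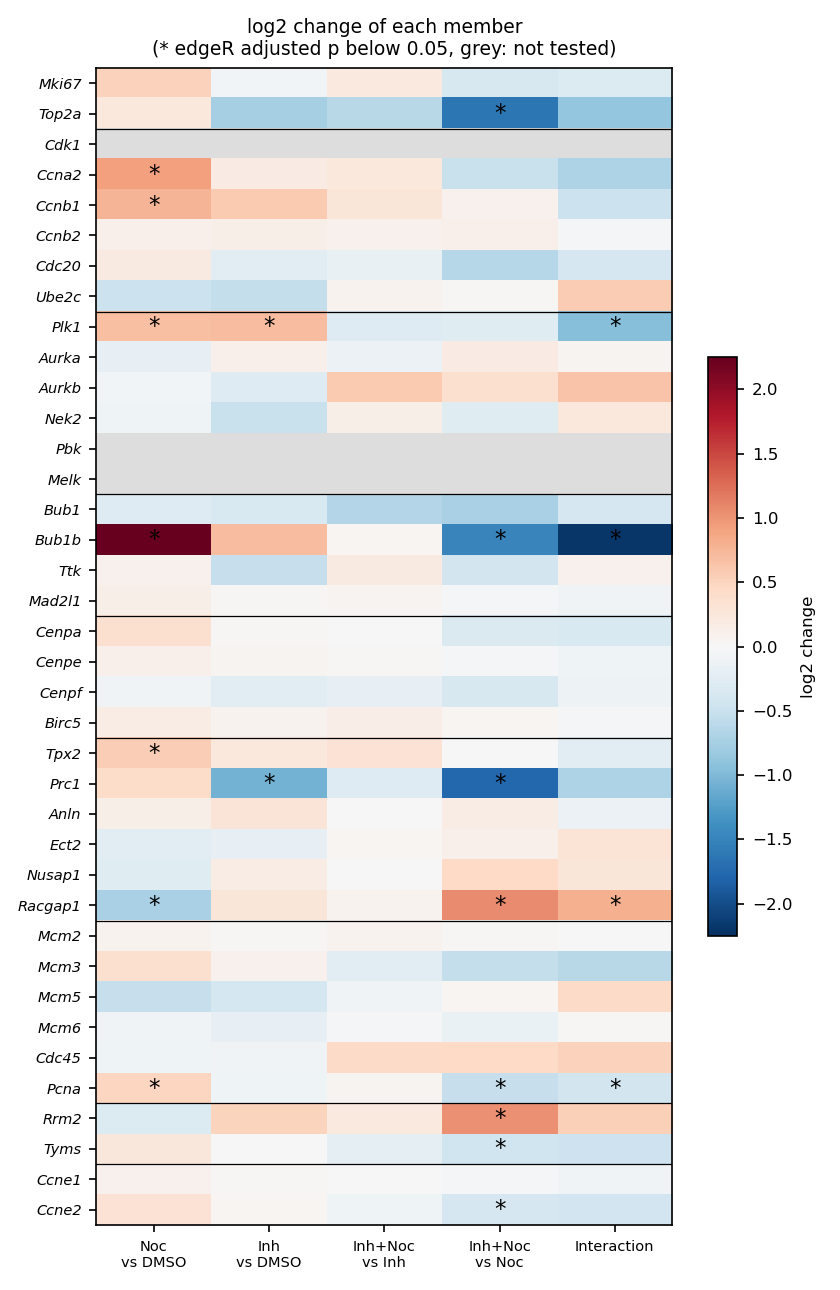
Fitted log2 change of each of the 38 members (rows, ordered by role) in the 4 pairwise comparisons and the interaction (columns), from blue (lower) to red (higher), with a star where the edgeR adjusted p was below 0.05 and grey for the 3 members not tested. Stars are few: 7, 2, 0, 8 and 4 from left to right, and the Bub1b and Racgap1 rows carry opposite colours in the first, the fourth and the last column.

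Genes that lie beside a member can share its reads where transcripts overlap, and the sources used here do not say whether counting used the strand. In the GENCODE M21 annotation Prc1 overlaps Rccd1 on the opposite strand. So do Ccna2 with Exosc9, Ccne2 with Ints8, Cdc20 with Elovl1, Nusap1 with Oip5, Cdc45 with Ufd1 and Ube2c with Tnnc2. Prc1 also overlaps the noncoding gene 6330403N20Rik on the opposite strand. That gene had no values here, so read sharing with it was not assessed. Rccd1 lay at group means of 6.41, 6.48, 5.28 and 5.40 CPM, in the order DMSO, nocodazole, inhibitor and both, and was not called for nocodazole alone, the inhibitor alone or the inhibitor under nocodazole. Exosc9 lay at 14.2, 14.2, 12.9 and 13.5 CPM and was not called in these either. Ints8 had log2 changes of -0.18 (edgeR adjusted p = 0.0382) with the inhibitor alone and -0.28 (0.00100) with the inhibitor under nocodazole, the direction of the weak Ccne2 call there. Elovl1 rose by 0.57 in nocodazole (edgeR adjusted p = 0.000194), where Cdc20 did not pass. Of the nearest neighbours of the 7 members called in nocodazole, 12 were tested, with 4 called in the member's direction and 2 in the other, where 37.5% of all tested genes were called. Of those of the 8 called for the inhibitor under nocodazole, 12 were tested, with 7 called in the member's direction and 0 in the other. Of all tested genes 33.9% were called there, 17.7% higher and 16.2% lower. Examples, chosen after their values were seen, go both ways. Bmf, the gene before Bub1b, rose by 1.59 in nocodazole (edgeR adjusted p = 0.00184), and Asic1, after Racgap1, fell by 0.89 (5.04e-06). Unc45a, after Prc1, fell by 0.35 under the inhibitor (0.000536). Dctn5 and Ern2, on either side of Plk1, fell by 0.18 (0.0159) and 2.59 (0.00457) in nocodazole, where Plk1 rose. Ern2 had means of 0.339 CPM in DMSO and 0.0534 CPM in nocodazole, the latter under the floor of 3 counts. Processed pseudogenes named for Pcna and Ccnb2 had group means of 0.956 to 1.53 CPM (Pcna-ps2) and 1.12 to 1.51 CPM (Ccnb2-ps), with no call for nocodazole alone or the inhibitor alone. Reads of such copies may have been divided between gene and pseudogene.

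Other genes of the same processes were read from 3 further lists, chosen, like the members, with earlier results of these data known. Of 67 other mitosis genes, 62 were tested, and 13 rose and 6 fell in nocodazole against DMSO (30.6% called, below the 37.5% of all tested genes). Cdc25c, the phosphatase that switches Cdk1 on, went from a mean of 0.135 to 0.573 CPM (log2 change 2.06, edgeR adjusted p = 0.000204). Its means in DMSO and with both agents (0.136 CPM) lay under the 0.299 CPM of the filter. It may thus have been tested through its nocodazole libraries, and its calls here and in the interaction carry that limit. Mybl2, the transcription factor that works with the cell cycle homology region, rose by 1.20 (0.000669), Kif23, the motor partner of Racgap1, by 2.67 (0.000673) from 0.155 to 1.01 CPM, and Sgo1, a protector of centromere cohesion, by 1.35 (0.00101). The DMSO means of Kif23 (0.155 CPM) and Sgo1 (0.211 CPM) also lay under the 0.299 CPM of the filter. Both may thus have been tested through groups where they were higher, and their calls against DMSO carry that limit. The Kif23 mean in DMSO also lay not far above the floor of 3 counts. Within these limits, the partners in the centralspindlin complex moved in opposite directions in the same libraries, Kif23 higher and Racgap1 lower. Kif23 was also called higher with the inhibitor alone (1.72, edgeR adjusted p = 0.0465, mean 0.528 CPM), where Racgap1 was not called. Of these 62 genes, 2 rose and 0 fell in edgeR under the inhibitor alone (2 and 2 in DESeq2, 8 at an unadjusted edgeR p under 0.05), 0 were called for nocodazole with the inhibitor (0 in DESeq2, 2 at an unadjusted p under 0.05), and 7 rose and 12 fell with both agents against nocodazole (30.6%, against 33.9% of all tested genes). In the interaction, 2 were higher and 5 lower (11.3%, against 18.7%), among them Cdc25c (-2.59, edgeR adjusted p = 0.00318), Mybl2 (-1.57, 0.00397) and Sgo2a, another cohesion protector (1.11, 0.0131).

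Of 60 other replication genes, 57 were tested, and 10 rose and 6 fell in nocodazole (28.1% called, below the 37.5% of all tested genes). Mcm10, which helps to start the helicase, rose by 1.58 (edgeR adjusted p = 5.39e-05) from 1.61 to 4.81 CPM. Timeless, a fork protection gene, fell by 1.12 (2.72e-05) from 6.22 to 2.87 CPM, Cdc7, the kinase that fires origins, fell by 0.84 (3.51e-05) from 18.9 to 10.5 CPM, and Dnmt1, the maintenance DNA methyltransferase, fell by 0.32 (0.000143) from 64.1 to 51.5 CPM. Under the inhibitor alone 3 rose and 1 fell, with both agents against the inhibitor 0 were called in edgeR (1 in DESeq2, 3 at an unadjusted p under 0.05), and against nocodazole 11 rose and 6 fell (29.8%, against 33.9% of all tested genes). The interaction was higher for 4 and lower for 3 (12.3%, against 18.7%), led by Mcm10 (-1.89, edgeR adjusted p = 0.00129), Cdc7 (0.77, 0.00396) and Dnmt1 (0.28, 0.0126). The median log2 change in nocodazole was 0.15 for other mitosis genes and 0.02 for other replication genes.

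Of 28 G1 regulators and cell cycle brakes, 27 were tested, and 11 rose and 2 fell in nocodazole (48.1% called, against 37.5% of all tested genes), with a median of 0.32. As this list was chosen with earlier results of these data known, its shares above the background, here and below, are not an independent result. Their summed level lay at 785 to 885 CPM in DMSO and 1056 to 1294 CPM in nocodazole. Gadd45a, a stress-induced inhibitor of Cdk1, rose by 2.63 (edgeR adjusted p = 1.09e-06) from 17.8 to 111 CPM. Btg1 and Btg2, antiproliferative partners of the mRNA deadenylase, rose by 1.89 (1.44e-06) and 2.35 (0.000135), and Cdkn2d, an inhibitor of Cdk4 and Cdk6, fell by 0.50 (1.59e-05) from 77.1 to 54.4 CPM. With both agents against nocodazole, 2 rose and 9 fell (40.7%, against 33.9% of all tested genes), under the inhibitor alone 1 rose and 2 fell, and with both against the inhibitor 0 were called in edgeR (0 in DESeq2, 2 at an unadjusted p under 0.05). The interaction was higher for 2 and lower for 5 (25.9%, against 18.7%), led by Gadd45a (-2.04, edgeR adjusted p = 0.000931), Btg1 (-1.36, 0.00251) and Cdkn2d (0.43, 0.00396).

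**Figure D5:**
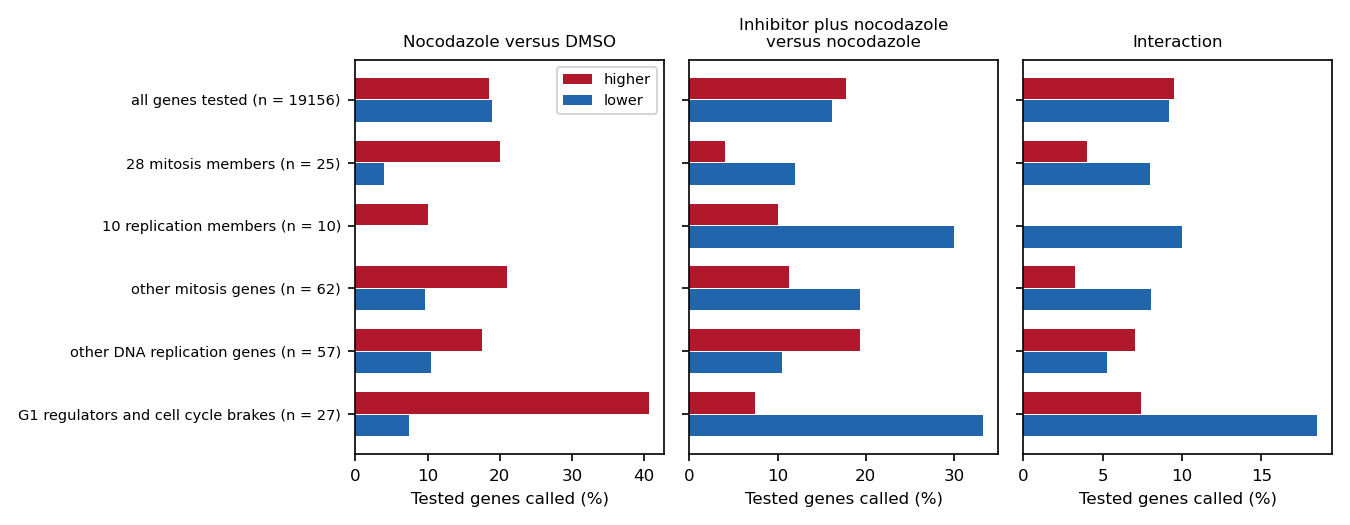
Share of tested genes called higher (red) and lower (blue) by edgeR, in percent, for all genes, the 25 mitosis and 10 replication members tested and the 3 further lists, in 3 of the comparisons, each panel with its own scale. In nocodazole against DMSO, 1 of 35 members, 6 of 62 other mitosis genes and 6 of 57 other replication genes were called lower, and the G1 regulators and brakes have the longest red bar of that comparison (11 of 27). All lists were chosen with earlier results of these data known.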

How the data were processed

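Total RNA, depleted of ribosomal RNA, was sequenced from 16 samples in 4 groups of 4. The authors deposited 1 table of raw counts per gene identifier, and the submitters' processing notes name STAR, Salmon and GRCm39 without versions or roles. Whether the counting used the strand is not given in the sources used here. Of 55356 identifiers, 52080 (94.1%) were paired with a symbol. Library totals ran from 30987962 to 43321421 counts.

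Counts were fitted with edgeR 4.0.16 (quasi-likelihood, R 4.3.3, limma 3.58.1) with a mean for each group over all 16 libraries, TMM-scaled library sizes and filterByExpr, which asked for 0.299 CPM in at least 4 libraries. Of these identifiers, 19156 were tested. P-values were adjusted by Benjamini-Hochberg over all tested genes and called below 0.05, and every adjusted p in the text is of this kind unless DESeq2 is named. The script was checked on simulated counts before use. Levels per kilobase use the union of exons in GENCODE M21 (GRCm38), and promoters come from RefSeq on GRCm38.p6. No replicate pair agreed within counting noise (chi-square per degree of freedom 7.82 to 49.3 over 24 pairs).

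The 38 members and the 9 other lists were chosen with earlier results of these data known. Named with values were members called in any comparison, the highest member of each role, those not tested, and per other list up to 4 called genes of smallest p in nocodazole against DMSO and up to 3 in the interaction; other members were added for their role. Alternatives were DESeq2 1.42.0, its size factors in edgeR, no filter, at least 1 CPM in 4 libraries, only the groups compared, the replicate number as a block, and each library left out in turn.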

Additional observations from a re-analysis of the deposited data

Results flagged for a closer look

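The nocodazole change differed with and without the inhibitor for 4 members, by edgeR's interaction term: Bub1b (-2.19, adjusted p = 0.00235), Plk1 (-0.96, 0.0279), Racgap1 (0.80, 0.00459) and Pcna (-0.42, 0.0269). The values behind them are in the report.

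A single library lay far from the other 3 of its group in 6 of 152 sets of 4 values, where chance gives about 1 in 20. Ube2c was high in inhibitor replicate 1, at 0.936 CPM against 0.756 to 0.785. Aurka was low in inhibitor plus nocodazole replicate 1, at 2.07 CPM against 2.95 to 3.11. In DMSO, Aurkb was low in replicate 1, at 0.124 CPM against 0.351 to 0.372, Mcm2 was high in replicate 1, at 13.3 CPM against 9.79 to 10.3, and Cdc45 was high in replicate 3, at 0.967 CPM against 0.900 to 0.908. Cdc45 was also high in inhibitor plus nocodazole replicate 2, at 1.79 CPM against 0.937 to 1.02. The Aurkb value rests on 4 counts. None of these members was called in any comparison.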

How the results depend on the processing

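Of 455 values of the 21 member calls under the alternatives, 387 kept direction and call, 68 kept the direction and lost the call, and 0 reversed. In every alternative 13 calls held, and that of Top2a held in the 20 that tested it and was not tested in the other 2. Without the filter, members called were 1 for the inhibitor against DMSO (2 with the filter) and 2 for the interaction (4 with it), and 28 genes in all were called for nocodazole with the inhibitor present (16 with it). In fits of only the groups compared, 5 members were called for the inhibitor under nocodazole (8 in the fit of all groups), and 6 genes in all for nocodazole with the inhibitor present, where DESeq2 called 127. Leaving out 1 library gave, for members called, 5 to 7 for nocodazole against DMSO, 1 to 2 for the inhibitor against DMSO, 0 for nocodazole with the inhibitor present, 6 to 9 for the inhibitor under nocodazole and 2 to 4 for the interaction. Over all genes the same ranges were 6160 to 7770, 1242 to 3087, 3 to 88, 5484 to 7218 and 2607 to 5218. Same-numbered replicates did not deviate together in most pairs (r from -0.40 to 0.23 over 24 pairs, 8 of them over 0.1). The numbers thus showed no clear pairing of the samples, though weak correlations cannot exclude one. With the replicate block, members called were 6, 2, 0, 6 and 4 in that order, 5 genes in all were called for nocodazole with the inhibitor present, and the calls of Ccnb1 (adjusted p = 0.0579), Tyms (0.0641) and Ccne2 (0.0709) were lost in edgeR. For the 21 named results of other lists, each a gene in a comparison, 450 values came from alternatives that tested the gene. All of these kept direction and call, and the few alternatives that did not test a gene gave no value. These results were named for their small p, so their holding says nothing about the other called genes of the lists. With 12 to 15 counts behind Bub1b in DMSO and 2 to 21 behind Top2a, depth limits the precision of the weak members; Cdk1, Pbk and Melk could not be tested.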
